A study of Rattus norvegicus with 10 samples.

Results

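The genes of fatty acid oxidation were examined in the renal cortex of PCK rats, a model of autosomal recessive polycystic kidney disease that carries a mutation in *Pkhd1*. The members are 35 genes named by symbol, chosen because their products take up, activate, transport or oxidize fatty acids in mitochondria and peroxisomes, or switch on the genes that do so. Of these, 33 symbols have a row in the expression table, which lists 32545 genes. *Eci2* and *Acot1* had no row under these symbols, so their expression was not analysed here. RNA was sequenced from 5 male and 5 female PCK rats, with 1 library per rat. All 10 rats were of the PCK/CrljCrl-Pkhd1pck/Crl strain, came from 1 colony on 1 diet and carried the same mutation, so the comparison is of the sexes within the disease and no rat without the mutation entered it. The labels give an age of 12 to 14 weeks and the tissue as kidney, whereas the methods of the study give a somewhat younger age and snap-frozen cortex. The rats were littermates from 2 litters, and the litters were not analysed here.

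Fatty acids enter a cell through carriers such as CD36 and are joined to coenzyme A by the long-chain acyl-CoA synthetases. Long chains then pass into mitochondria on carnitine, through carnitine palmitoyltransferase 1, a translocase and carnitine palmitoyltransferase 2, and are shortened there by a repeating spiral of dehydrogenation, hydration, a second dehydrogenation and thiolysis. Peroxisomes run a related spiral on very long and branched chains, begin it with acyl-CoA oxidases that pass electrons to oxygen, and hand the shortened chains to mitochondria. The proximal tubule, which makes up much of the renal cortex, draws most of its energy from this pathway, and PPARα and its coactivator PGC-1α are its best known transcriptional activators.

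Expression is given as FPKM, the reads on a gene scaled to the length of its transcript and to the depth of the library, so that levels of different genes may be set side by side. The sexes were compared in limma, fitted to log2(FPKM + 0.1) of the 17631 genes whose mean reached 0.1 FPKM. Genes were called different where the p adjusted by Benjamini-Hochberg over all of them did not exceed 0.05. Fold changes are females over males on this log2 scale, with the standard error (SE), and they understate the change of genes with low levels. For single genes the mean FPKM of the sexes was also compared by exact permutation, two-sided, and the smallest p that 5 rats against 5 can give is 0.00794.

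The peroxisomal oxidase *Acox2* was 3.08-fold higher in mean FPKM in female than in male PCK cortex and was called different. The other 31 members tested, which include all those of the mitochondrial spiral and the carnitine shuttle, were not called in either direction. Across all genes, 2.4% were called, 1.26% higher and 1.14% lower in females, so that 1 call among 32 members is close to the share of all genes. *Acox2* also passed the stricter rule that adds a log2 fold change of 1 or more, up or down, which 1.32% of all genes passed (0.618% higher and 0.698% lower in females). The median log2 fold change was 0.03 over the members and -0.01 over all genes, with 20 members above 0 and 12 below, while 48.8% of all genes were above 0. In 31 of the 32 members the 95% interval of the log2 fold change lay within -1 and 1, and in 16 of them it lay within -0.5 and 0.5.

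**Figure D1:**
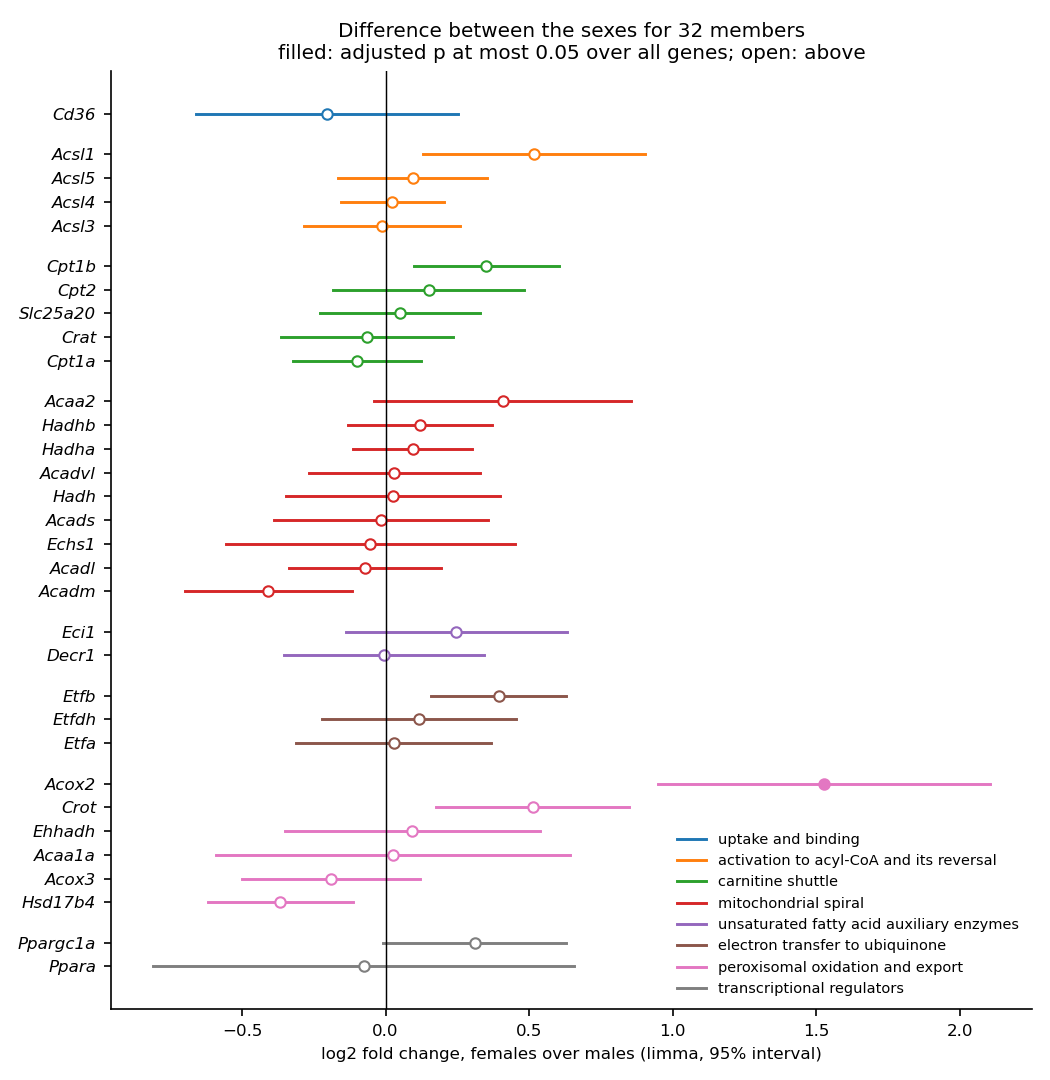
Log2 fold change of females over males for the 32 members tested, grouped by role, with the point at the limma estimate and the line at its 95% interval. *Acox2*, the filled point at 1.53, is the 1 member called, and the intervals of most other members cross 0.

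In 3 members, *Acox2*, *Etfb* and *Cpt1b*, the FPKM of every female was above that of every male, and in none was every female below every male. Over all genes 5.1% were separated, 2.5% upward in females and 2.6% downward. An exact permutation p no higher than 0.05 was found for 7 members, against 14.8% of all genes. These were *Acox2*, *Etfb* and *Cpt1b* together with *Crot*, *Acsl1*, *Acadm* and *Hsd17b4*, the latter pair with the lower mean in females. Leaving out 1 rat at a time raised the p above 0.05 in 3 of 10 fits for *Crot*, 7 for *Acsl1*, 3 for *Acadm* and 6 for *Hsd17b4*.

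*Acox2* encodes a peroxisomal acyl-CoA oxidase that acts on the side chain of bile acid precursors. It is listed as ENSRNOG00000007378 on chromosome 15 of Rnor_6.0 from 18451144 to 18481470. The promoter sequence before its transcription start is shown because it belongs to the member that was called, and it stands beside that of *Etfb*, whose ranges were also separate. Both are RefSeq sequences on the build GRCr8, chr15:19090705-19090954 and chr1:102988249-102988498, written on the plus strand, which is the strand of both genes there. Capitals mark CCAAT and GGGCGG on either strand, the letters of the CCAAT box and of the GC box.
Acox2: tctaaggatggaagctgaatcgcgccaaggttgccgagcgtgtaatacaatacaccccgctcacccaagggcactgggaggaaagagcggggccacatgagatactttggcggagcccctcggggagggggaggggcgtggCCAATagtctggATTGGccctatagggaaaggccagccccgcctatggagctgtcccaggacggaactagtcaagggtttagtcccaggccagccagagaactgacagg
Etfb: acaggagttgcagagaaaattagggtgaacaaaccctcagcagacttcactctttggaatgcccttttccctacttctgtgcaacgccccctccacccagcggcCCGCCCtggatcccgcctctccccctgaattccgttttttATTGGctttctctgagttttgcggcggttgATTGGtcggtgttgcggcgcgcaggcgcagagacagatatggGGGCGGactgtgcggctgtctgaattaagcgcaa

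These windows hold 2 CCAAT matches in *Acox2* and 2 in *Etfb*, where 2 GGGCGG matches lie as well. RefSeq gave a promoter of 300 bases, 250 before the start and 50 after it, for 31 of the 35 members, and not for *Acaa2*, *Acadl*, *Cpt1b* and *Decr1*. CCAAT was present in 13 of the 31 and in 37.5% of the 33469 promoters of the table. GGGCGG was present in 21 of the 31 and in 33.1% of all promoters. A direct repeat of AGGNCA with 1 base between its arms, of the kind PPAR dimers bind, was searched on both strands and was found in 1 member promoter and in 0.415% of all promoters. That member was *Fabp1*.

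Males had 2.65, 3.13, 2.50, 3.95 and 4.04 FPKM of *Acox2* in rats 1 to 5, and females had 10.2, 6.005, 6.27, 12.5 and 15.2 FPKM. The lowest female was thus above the highest male, and the females were more widely spread than the males. Males averaged 3.25 ± 0.716 FPKM and females 10.03 ± 3.97 FPKM (SD, n = 5 each), from 90 to 604 reads per rat. The log2 fold change was 1.53 (SE 0.26, limma adjusted p = 0.0111, exact permutation p = 0.00794). Under the 19 other settings tried, each of which kept the call, the log2 fold change ran from 1.31 to 1.77 and the adjusted p from 0.00670 to 0.0346.

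**Figure D2:**
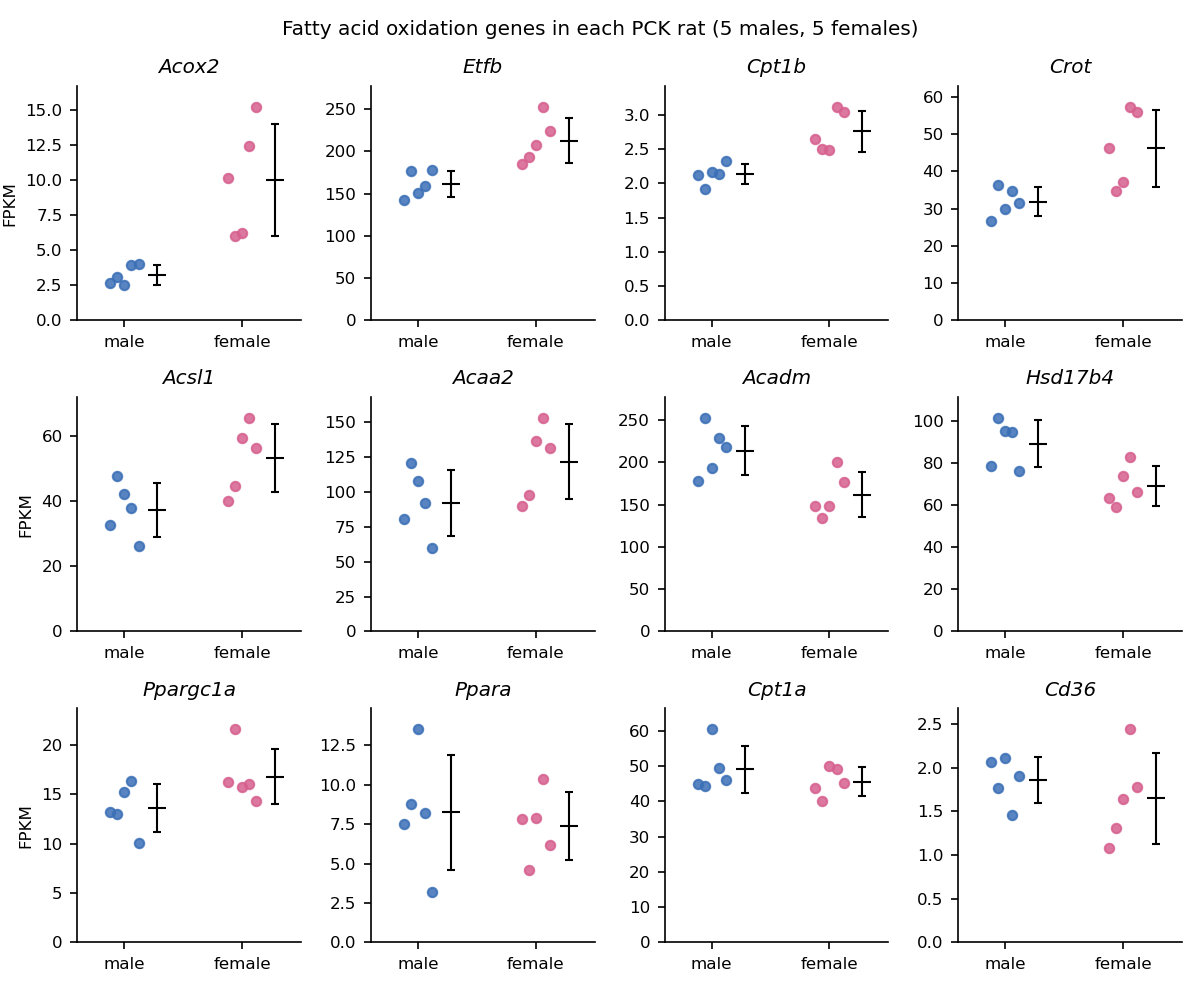
FPKM of 12 members in each of 5 male (blue) and 5 female (pink) PCK rats, with the mean and SD drawn in black and each vertical axis starting at 0. The sexes are separate in *Acox2*, *Etfb* and *Cpt1b*, and they overlap in the other 9 panels.

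Some peroxisomal enzymes of the branched-chain route are given as well, and others that were tested are left out. *Acox3*, an oxidase of branched chains, averaged 23.5 FPKM in males (18.3 to 28.7) and 20.6 FPKM in females (15.4 to 24.5), with a limma adjusted p of 0.568.

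*Amacr*, the racemase that prepares branched chains for the oxidases, averaged 100 ± 13.7 FPKM in males and 171 ± 58.7 FPKM in females (SD, n = 5 each, exact permutation p = 0.0238), but it was not called over all genes (limma adjusted p = 0.128) unless female 2 was left out. *Amacr* is named after its values were seen. *Hsd17b4* encodes the D-bifunctional protein that carries out the next steps for branched and very long chains, and it too is given here after its values were seen. It had 78.9, 101, 95.3, 94.8 and 76.5 FPKM in males and 63.6, 59.2, 74.2, 83.2 and 66.4 FPKM in females. The ranges overlapped through female 4 and males 1 and 5, and the log2 fold change was -0.37 (SE 0.11, limma adjusted p = 0.137, exact permutation p = 0.0317). With the FPKM scaled to total recovered reads or quantile normalized, *Hsd17b4* was called lower in females (adjusted p = 0.0482 and 0.0495), where the first scaling moved the median of all genes to -0.08.

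**Figure D3:**
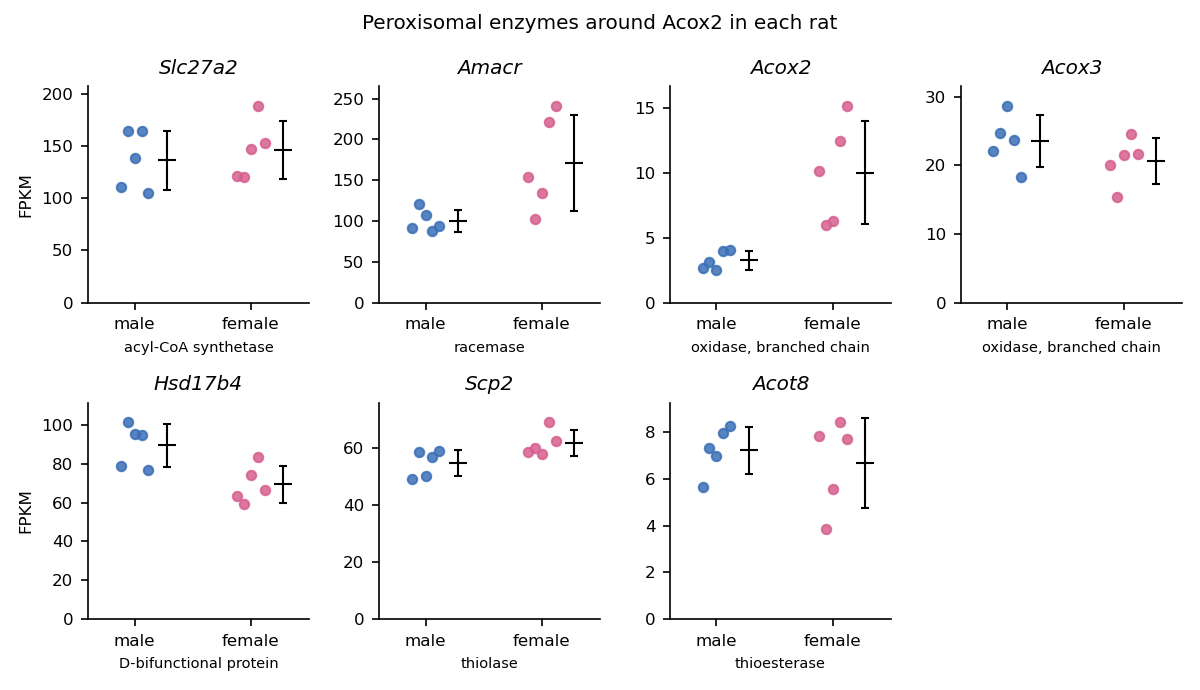
FPKM of 7 peroxisomal enzymes in each of 5 male (blue) and 5 female (pink) rats, with the mean and SD in black and each axis starting at 0. *Acox2* is the panel in which the sexes do not overlap, while *Acox3*, *Slc27a2* and *Acot8* overlap widely.

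Of the remaining peroxisomal members none was called. *Crot* encodes carnitine octanoyltransferase, through which shortened chains leave the peroxisome. Males had 26.7, 36.4, 30.0, 34.8 and 31.5 FPKM and females had 46.2, 34.6, 37.2, 57.2 and 55.9 FPKM. Female 2 lay within the male range and the other 4 females lay above it. The log2 fold change was 0.51 (SE 0.15, limma adjusted p = 0.121, exact permutation p = 0.0238), and without female 2 *Crot* was called higher at an adjusted p of 0.0475. *Ehhadh*, the L-bifunctional protein, averaged 72.6 FPKM in males (50.9 to 94.1) and 77.2 FPKM in females (51.8 to 95.4). *Acaa1a*, the peroxisomal thiolase of straight chains, averaged 108 FPKM in males (79.6 to 133) and 117 FPKM in females (51.9 to 160). Both had a limma adjusted p above 0.05 (0.875 and 0.981), and *Acaa1a* in females, with a coefficient of variation of 37.7%, was among the most variable members.

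The members of fatty acid uptake and binding were listed at low level. *Cd36*, the fatty acid carrier of the plasma membrane, had 2.06, 1.77, 2.11, 1.46 and 1.91 FPKM in males and 1.08, 1.31, 1.64, 2.44 and 1.78 FPKM in females. The ranges overlapped, with both the lowest and the highest value in females (log2 fold change -0.20, SE 0.21, limma adjusted p = 0.698), and without female 1 the log2 fold change was -0.07. *Cd36* shares its strand and position with *LOC685953* and *RGD1565355*, over 28348 and 178212 bases. These genes took at most 8 and 6 reads in any rat. How reads in the shared stretches were assigned was not tested, so the level of *Cd36* is uncertain. *Fabp1*, the liver-type fatty acid binding protein, had 1 read in male 4, 1 read in female 3 and 0 in the other 8 rats. These lie at or under the limit of detection of 3 reads per rat, so no fold was computed, and *Fabp1* was the 1 member with a row that was not tested. Its RefSeq promoter, chr4:104749090-104749339 on GRCr8 and on the plus strand, which is the strand of the gene, is shown as the member promoter that holds the direct repeat, in capitals on the opposite strand.
Fabp1: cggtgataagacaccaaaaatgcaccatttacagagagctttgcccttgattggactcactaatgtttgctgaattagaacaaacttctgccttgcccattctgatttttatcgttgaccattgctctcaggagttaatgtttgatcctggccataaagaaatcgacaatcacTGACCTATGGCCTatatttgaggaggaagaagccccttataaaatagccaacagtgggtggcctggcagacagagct

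In contrast, *Fabp3*, the heart-type binding protein and no member of the set, was abundant. It had 139, 172, 144, 131 and 126 FPKM in males and 176, 215, 210, 224 and 231 FPKM in females. Every female was above every male, and the gene was called higher in females (log2 fold change 0.57, SE 0.11, limma adjusted p = 0.0187). The call was lost without male 4 or without female 5, at an adjusted p of 0.0531 and 0.0580, without male 5 and female 2 together (0.0593) and with the replicate block (0.0844).

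Of the enzymes that activate fatty acids, *Acsl1*, the main long-chain synthetase of oxidative tissues, had 32.5, 47.6, 42.1, 37.8 and 26.4 FPKM in males and 40.2, 44.7, 59.3, 65.5 and 56.2 FPKM in females. Females 3, 4 and 5 were above all males, and females 1 and 2 were within the male range. The log2 fold change of 0.52 (SE 0.18) was not called, with a limma adjusted p of 0.175 and an exact permutation p of 0.0476. With 1 rat left out the exact permutation p ran from 0.0238 to 0.0873. *Acsl3* averaged 18.7 FPKM in males (17.2 to 19.9) and 18.8 FPKM in females (15.8 to 25.6). *Acsl4*, which prefers arachidonic acid, averaged 25.4 FPKM in males (23.6 to 27.3) and 25.9 FPKM in females (23.6 to 29.8), with the narrowest interval of the members, -0.16 to 0.20 on the log2 scale. *Acsl5* averaged 20.8 FPKM in males (18.4 to 25.4) and 22.2 FPKM in females (18.9 to 27.2). None of these 3 was called (limma adjusted p = 0.980, 0.930 and 0.763).

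No member of the carnitine shuttle was called. *Cpt1a* encodes the liver isoform of carnitine palmitoyltransferase 1, the gate at which malonyl-CoA stops entry. It had 44.98, 44.3, 60.4, 49.4 and 45.9 FPKM in males and 43.9, 39.98, 49.9, 49.1 and 45.1 FPKM in females. Male 3 stood highest and the other 9 rats lay between 39.98 and 49.9 FPKM (log2 fold change -0.10, SE 0.10, 95% interval -0.32 to 0.12, limma adjusted p = 0.699). *Cpt1b*, the muscle isoform, was lower by more than an order of magnitude, at 2.12, 1.92, 2.16, 2.13 and 2.33 FPKM in males and 2.65, 2.50, 2.49, 3.11 and 3.04 FPKM in females. Every female was above every male, yet the gene was not called (log2 fold change 0.35, SE 0.11, limma adjusted p = 0.156, exact permutation p = 0.00794). The ranges of *Cpt1b* overlapped when scaled to total recovered reads. *Cpt1b* overlaps *Chkb* on the same strand by 516 bases. *Chkb* averaged 16.1 FPKM in males and 17.5 FPKM in females, and how reads in the shared stretch were assigned was not tested.

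The inner steps of the shuttle followed. *Cpt2*, which returns the chain from carnitine to coenzyme A, averaged 17.9 FPKM in males (14.0 to 22.5) and 19.9 FPKM in females (15.2 to 23.1). *Slc25a20*, the carnitine-acylcarnitine translocase, averaged 36.9 FPKM in males (30.6 to 41.8) and 38.4 FPKM in females (31.5 to 44.3). *Crat*, carnitine acetyltransferase, averaged 65.5 FPKM in males (52.2 to 72.5) and 63.0 FPKM in females (49.2 to 72.3). The ranges of all 3 overlapped almost entirely (limma adjusted p = 0.697, 0.895 and 0.873).

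No member of the mitochondrial spiral was called. *Acadm* encodes the medium-chain acyl-CoA dehydrogenase and had the highest mean of all members over the 10 rats, 188 FPKM, and in males alone, though not in females. Males had 178, 252, 194, 229 and 218 FPKM and females had 148, 134, 149, 200.9 and 177 FPKM. Females 1, 2, 3 and 5 lay below every male, and female 4 lay within the male range. The log2 fold change was -0.41 (SE 0.13, limma adjusted p = 0.154, exact permutation p = 0.0317), the most negative of the members. After quantile normalization *Acadm* was called lower in females at an adjusted p of 0.00765.

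The dehydrogenases for other chain lengths had closer means. *Acadvl*, for very long chains, averaged 77.3 FPKM in males (66.9 to 86.1) and 79.7 FPKM in females (58.8 to 98.9). *Acadl*, for long chains, averaged 117 FPKM in males (99.5 to 140) and 111 FPKM in females (89.3 to 128). *Acads*, for short chains, averaged 49.6 FPKM in males (46.0 to 53.5) and 50.5 FPKM in females (32.7 to 65.3). None was called (limma adjusted p = 0.947, 0.828 and 0.980), and *Acads* was spread over a wider range in females. The FPKM of *Acadm* relative to *Acadl* in the same rat was 1.79, 2.04, 1.64, 1.64 and 2.13 in males and 1.29, 1.499, 1.34, 1.57 and 1.61 in females. Every female ratio was below every male ratio. Of the 36 ratios between 2 genes of the spiral 7 had separate ranges, 6 of them with *Acadm*, and the share over pairs of all genes was not computed. The ratios were examined after the levels had been seen and are given with no test.

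*Hadha* and *Hadhb* encode the 2 subunits of the trifunctional protein, which completes the spiral for long chains. They lie head to head on chromosome 6, with 300 bases between their starts in RefSeq. On Rnor_6.0, as listed with the FPKM, the starts lie further apart, at 27582995 for *Hadhb* and 27589657 for *Hadha*. The 200 bases in the middle of the RefSeq interval are chr6:31907551-31907750 of GRCr8 on the plus strand. They are shown because they lie before the RefSeq starts of both genes. The capitals mark GGGCGG on the opposite strand.
Hadha and Hadhb: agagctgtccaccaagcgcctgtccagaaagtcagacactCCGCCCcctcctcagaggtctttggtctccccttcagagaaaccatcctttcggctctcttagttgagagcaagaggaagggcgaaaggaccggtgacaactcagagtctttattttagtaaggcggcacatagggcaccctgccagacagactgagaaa

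*Hadha* averaged 95.2 FPKM in males (83.8 to 113) and 101 FPKM in females (94.0 to 115). *Hadhb* averaged 136 FPKM in males (121 to 157) and 149 FPKM in females (129 to 183). Neither was called (limma adjusted p = 0.693 and 0.675), and the FPKM of *Hadhb* over that of *Hadha* was 1.22 to 1.69 in males and 1.34 to 1.59 in females.

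Of the later enzymes, *Hadh*, the short-chain hydroxyacyl-CoA dehydrogenase, averaged 89.3 FPKM in males (62.5 to 109) and 90.6 FPKM in females (72.5 to 121), with a limma adjusted p of 0.965. *Acaa2*, the mitochondrial thiolase, had 81.0, 121, 108, 92.4 and 60.1 FPKM in males and 89.8, 98.0, 137, 153 and 131 FPKM in females. Females 3, 4 and 5 were above all males, and male 5 was the lowest of the 10 rats. The log2 fold change was 0.41 (SE 0.20, limma adjusted p = 0.367). *Echs1*, the short-chain enoyl-CoA hydratase, was listed in males at between 0.876 and 1.80 FPKM and in females at between 0.956 and 1.47 FPKM, from 22 to 50 reads per rat. This level is uncertain, because the table also lists *LOC100911186*, described as a mitochondrial enoyl-CoA hydratase-like gene, whose FPKM was 0.961, 1.42, 1.17, 12.9 and 0.855 in males and 2.05, 0.718, 15.2, 38.6 and 1.31 in females. *LOC100911186* exceeded 10 FPKM in male 4 and in females 3 and 4, and how reads were shared between similar sequences was not tested. *Echs1* also overlaps *Paox* on the other strand by 608 bases, and the strand setting of the counting is not given in the sources used here.

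The auxiliary enzymes admit unsaturated chains to the spiral. *Eci1*, an enoyl-CoA isomerase, averaged 121 FPKM in males (94.1 to 155) and 144 FPKM in females (112 to 176). *Decr1*, a dienoyl-CoA reductase, averaged 84.7 FPKM in males (72.2 to 102) and 85.6 FPKM in females (60.6 to 108). Neither was called (limma adjusted p = 0.547 and 0.992).

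Electrons from the dehydrogenases pass to the electron transfer flavoprotein, a dimer of the products of *Etfa* and *Etfb*, and then through the product of *Etfdh* to ubiquinone. *Etfb* is listed as ENSRNOG00000017851 and had 142, 177, 151, 159 and 177 FPKM in males and 185, 193, 207, 252 and 225 FPKM in females. Every female was above every male, though female 1 and males 2 and 5 were close, and the ranges overlapped when scaled to total reads. The means were 161 ± 15.7 and 212 ± 26.7 FPKM (SD, n = 5 each). On the log2 scale the fold change was 0.39 (SE 0.11, limma adjusted p = 0.0909, exact permutation p = 0.00794), so *Etfb* was not called over all genes. *Etfa* averaged 175 FPKM in males (160 to 215) and 181 FPKM in females (132 to 240), and *Etfdh* averaged 57.6 FPKM in males (45.4 to 70.04) and 62.0 FPKM in females (49.96 to 77.2). Both had widely overlapping ranges (limma adjusted p = 0.957 and 0.776). The FPKM of *Etfb* relative to *Etfa* was 0.870, 0.825, 0.891, 0.958 and 1.11 in males and 1.20, 1.47, 1.11, 1.05 and 1.18 in females, with an overlap through male 5.

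Neither transcriptional regulator was called. *Ppara*, which encodes PPARα, had 7.52, 8.80, 13.5, 8.19 and 3.23 FPKM in males and 7.84, 4.57, 7.88, 10.4 and 6.20 FPKM in females. The lowest and the highest values were both in males (log2 fold change -0.08, SE 0.33, 95% interval -0.81 to 0.66, limma adjusted p = 0.946), and the sign turned without male 3 or without female 2. *Ppargc1a*, which encodes PGC-1α, had 13.2, 13.0, 15.3, 16.4 and 10.05 FPKM in males and 16.3, 21.6, 15.7, 16.0 and 14.4 FPKM in females. Female 2 was the highest rat and male 5 the lowest (log2 fold change 0.31, SE 0.14, limma adjusted p = 0.330, exact permutation p = 0.0714). Without those 2 rats the log2 fold change was 0.11.

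Set side by side per length of transcript, the 32 members tested spanned 2 orders of magnitude. A mean of at least 50 FPKM was reached by 17 of them, 10 lay between 10 and 50 FPKM, and 5 lay under 10 FPKM. Over both sexes *Acadm*, *Etfb* and *Etfa* had means of 188, 187 and 178 FPKM, but their order differed by sex, with *Acadm* above *Etfb* in all 5 males and *Etfb* above *Acadm* in all 5 females. The lowest of those tested were *Ppara* at 7.81, *Acox2* at 6.64, *Cpt1b* at 2.44, *Cd36* at 1.75 and *Echs1* at 1.25 FPKM, with *Fabp1*, not tested, below them. The median coefficient of variation of the members was 13.9% in males and 17.6% in females, against 16.3% and 20.4% over all genes tested.

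**Figure D4:**
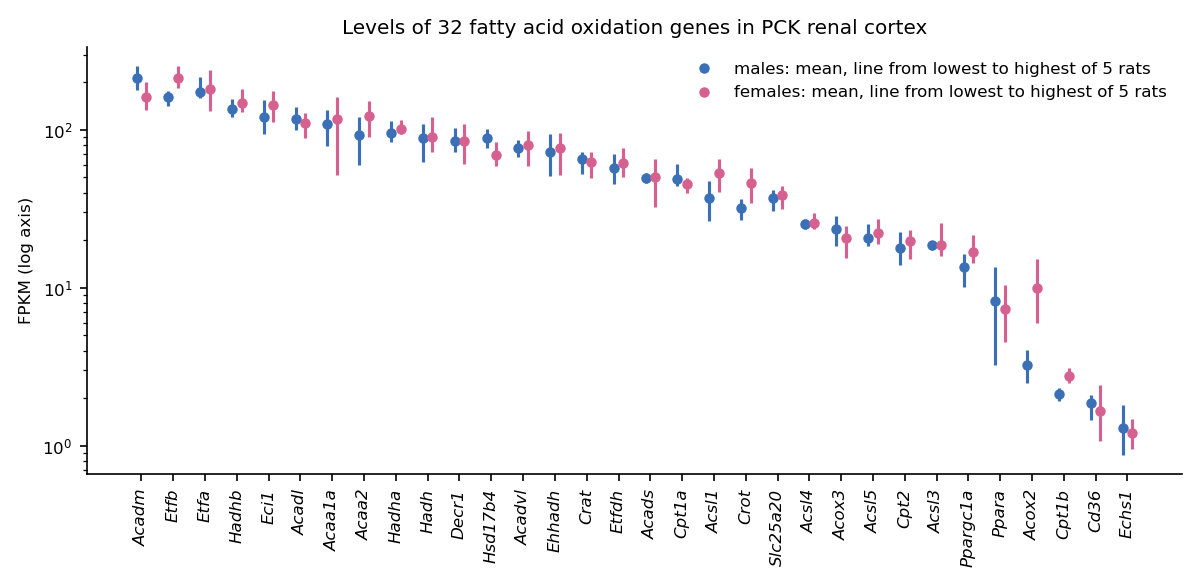
Mean FPKM (log axis) of the 32 members tested, ordered by their mean over 10 rats, with a line from the lowest to the highest of 5 males (blue) and 5 females (pink). Most enzymes of the mitochondrial spiral and of electron transfer stand between 50 and 200 FPKM, and *Acox2* and *Cpt1b* are the members at low level whose lines do not overlap.

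Many members were high or low in the same rat. Female 4 had the highest value of all 10 rats in 18 of the 32 members and in 14.5% of all genes tested. Female 2 had the lowest in 11 members and in 20.1% of the tested genes with reads in every rat. Males 1 and 5 each had the lowest value in 7 members, and in 7.29% and 13.7% of those genes. The median log2 deviation of the members from their own mean was 0.34 in female 4, -0.26 in female 2, -0.22 in male 5 and -0.20 in male 1. Over 10 marker genes of the proximal tubule the same quantity was 0.39 in female 4, -0.60 in female 2, -0.59 in male 5 and -0.05 in male 1. Over the tubular injury markers it was -1.56 in female 4, 0.19 in female 2, 0.73 in male 5 and 0.10 in male 1. In bulk tissue, fewer cells of a type and less RNA per cell cannot be told apart. Female 2 also had the highest share of mitochondrial reads, 26.8% against 14.3% to 19.1% in the other rats. With male 5 and female 2 left out together, a choice made after the data were seen, *Acox2* was again the 1 member called.

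**Figure D5:**
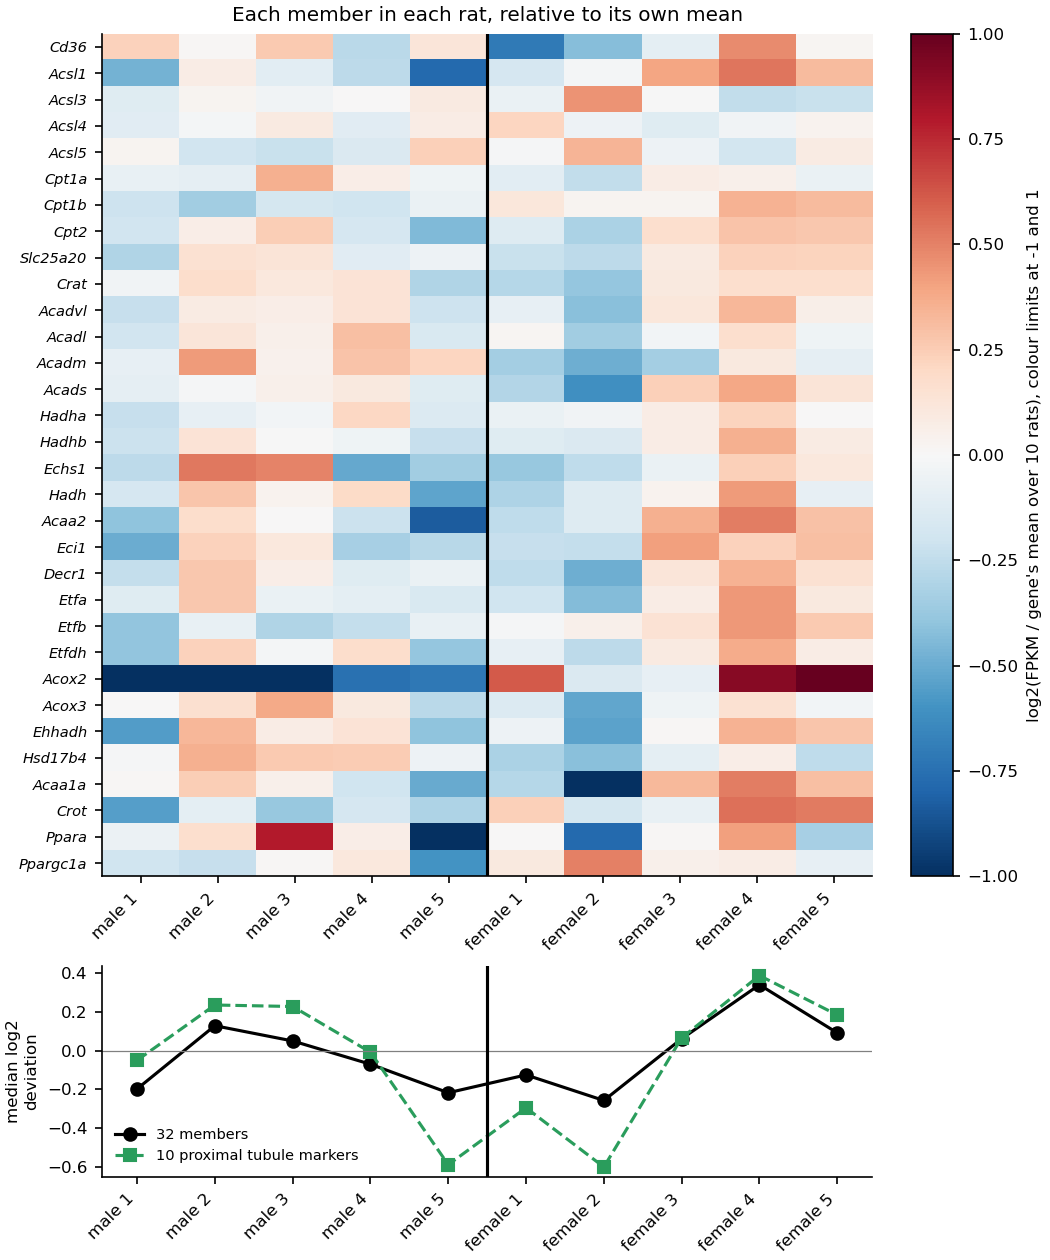
Upper panel, log2 of each member's FPKM in each rat relative to its mean over 10 rats, with colours limited at -1 and 1. The lower panel gives the median of these deviations over the 32 members (black circles) and over 10 proximal tubule markers (green squares), and both are lowest in female 2 and highest in female 4.

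Markers of the cell types were read beside these results. The summed FPKM of the 10 proximal tubule markers ran from 2505 to 4101 in males and from 2488 to 4473 in females, and 1 of the 10, *Cubn*, was called higher. Of these 10 markers 5 had a log2 fold change above 0 and 5 below, the most negative being *Aqp1* at 445 and 314 FPKM (limma adjusted p = 0.233). The 5 intercalated cell markers summed in males to between 134 and 205 FPKM and in females to between 215 and 337 FPKM, with 1 called higher, *Atp6v0d2*. All 5 thick ascending limb markers, the 3 tested of the distal convoluted tubule and all 5 of the principal cell had log2 fold changes above 0, with 1 called in each, *Kcnj1*, *Calb1* and *Avpr2*. The sums of the distal convoluted tubule markers lay between 205 and 332 FPKM in males and between 314 and 546 FPKM in females. All 6 leukocyte markers had log2 fold changes below 0 and none was called. The 6 fibroblast and pericyte markers summed in males to between 275 and 363 FPKM and in females to between 97.9 and 294 FPKM, with 1, *Col3a1*, called lower. None of the 6 tubular injury markers was called, and their sum ran from 3401 to 7365 FPKM in males and from 970 to 5708 FPKM in females. The part that these lists play in the results was not tested.

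For genes that fat, muscle and liver also express, the defining markers bear directly. Of 8 adipocyte markers, *Lep*, *Plin1*, *Ucp1* and *Retn* had means under 0.1 FPKM, with *Retn* at 0 in every rat, while *Cidec* was called lower in females. The male and female means of *Adipoq* were 3.89 and 6.75 FPKM, every female being above every male, and those of *Lpl* were 29.6 and 36.8 FPKM. Neither was called (limma adjusted p = 0.0731 and 0.289). The adipocyte sum lay between 39.1 and 52.6 FPKM in males and between 42.0 and 62.0 FPKM in females. Of 7 muscle markers, *Myh7*, *Myh6* and *Actn2* had means under 0.1 FPKM. The muscle sum ranged from 1.64 to 21.2 FPKM in males and from 1.54 to 25.0 FPKM in females, where myoglobin, *Mb*, was at 11.8 FPKM in male 4, 13.9 FPKM in female 5 and at most 0.150 FPKM elsewhere. Of 6 hepatocyte markers, *Alb* had a mean under 0.1 FPKM and *Ttr* was called higher, at 0 reads in all males and 0.0850 to 1.08 FPKM in females. *Fgb*, the most abundant of them, averaged 6.64 and 15.3 FPKM in males and females, *Cps1* 1.22 and 1.92 FPKM, *Serpina1* 0.825 and 0.325 FPKM and *Apoa1* 0.188 and 0.166 FPKM, and none of these was called. The hepatocyte sum lay between 4.54 and 21.3 FPKM in males and between 8.03 and 30.4 FPKM in females.

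Beyond the members, 106 symbols of neighbouring steps were listed, which matched 99 rows (*Acadsb* has 2), and 91 rows were tested. Of these, 2 were called higher in females, *Acsm5* and *Fabp3*, 1 was called lower, *Pecr*, and 88 were not called, a share near the 2.4% of all genes. *Acsm5* encodes a mitochondrial synthetase of medium-chain acyl-CoA. It had 4.37, 4.75, 4.22, 6.03 and 3.86 FPKM in males and 11.7, 7.12, 8.76, 14.7 and 15.2 FPKM in females. Every female was above every male, and the log2 fold change was 1.25 (SE 0.21, limma adjusted p = 0.00990). It remained called under all 19 other settings, with a log2 fold change from 1.11 to 1.403.

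*Pecr*, a peroxisomal enoyl-CoA reductase that serves chain elongation, had 69.5, 77.7, 71.4, 67.8 and 58.9 FPKM in males and 45.7, 41.2, 55.4, 58.6 and 43.8 FPKM in females. Every female was below every male, although male 5 and female 4 almost met. The call was near the threshold (log2 fold change -0.50, SE 0.11, limma adjusted p = 0.0455). Leaving out 1 rat at a time lost it in 7 of 10 fits, at an adjusted p between 0.0621 and 0.123.

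No gene was called in the lists of other mitochondrial oxidation (19 tested), malonyl-CoA control (7), ketone body metabolism (4) or further regulators and PPAR targets (22). *Acacb*, the acetyl-CoA carboxylase at the mitochondrial surface whose product inhibits carnitine palmitoyltransferase 1, had 3.03, 2.77, 3.12, 3.17 and 3.18 FPKM in males and 3.66, 3.63, 4.34, 3.94 and 4.41 FPKM in females. Its ranges were separate but it was not called (log2 fold change 0.37, SE 0.10, limma adjusted p = 0.0891), except with limma-voom on the recovered reads (adjusted p = 0.0371). *Slc22a5*, the carnitine transporter of the plasma membrane, had 38.0, 51.3, 52.9, 41.7 and 23.9 FPKM in males and 27.4, 23.9, 42.4, 48.1 and 39.7 FPKM in females, which overlapped throughout (adjusted p = 0.772 by limma).

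Target genes often used to read PPARα activity were also measured. *Pdk4*, which restrains glucose oxidation, averaged 5.34 FPKM in males (3.71 to 6.39) and 6.74 FPKM in females (4.11 to 11.6). *Angptl4*, an inhibitor of lipoprotein lipase, averaged 4.71 FPKM in males (3.50 to 6.87) and 3.74 FPKM in females (1.32 to 6.54). Neither was called (limma adjusted p = 0.717 and 0.603), nor was *Plin2*, a coat protein of lipid droplets, at 44.96 ± 5.16 and 42.9 ± 5.59 FPKM (SD, n = 5 each, limma adjusted p = 0.828).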

How the data were processed

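Novogene sequenced RNA from the renal cortex of 10 PCK rats, 5 of each sex by the labels, 1 library per rat. The authors deposited 1 table of FPKM for 32545 genes of Rnor_6.0. The methods name HISAT2, and the submitters' processing notes add HISAT2 2.0.5, fastp, StringTie 1.3.3b and featureCounts 1.5.0-p3. The authors' DESeq2 test used counts not used here. FPKM are relative to the depth of each library, so an abundant gene in 1 library lowers the others.

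Reads were recovered from each FPKM through the gene length and the step of 1 read, and came out whole (tolerance 0.01) for 100% of values. Males had 13912569 to 20285911 reads on genes and females 14963924 to 19556707. The closest 2 libraries differed beyond counting noise (chi-square per degree of freedom 9.78), and each was 1 sample. Limits set by reads cover counting error only. limma 3.58.1 (lmFit, eBayes with trend, R 4.3.3) was run on log2(FPKM + 0.1) for the 17631 genes whose mean reached 0.1 FPKM. Exact permutation tests used all splits of 10 rats into 5 and 5 (Python 3.11.15). The limma fit and the exact test were run on simulated libraries with changes larger than those of the uncalled members. Their power for changes as small as those was not tested.

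The members and lists were chosen with earlier results of these data known. Members were given rat by rat if called, if their ranges were separate, if their absolute log2 fold change was among the 5 largest, or as gates and regulators. *Hsd17b4* and *Amacr* lie outside that rule. Of the other pathway genes, those called or with separate ranges were named, with *Pdk4*, *Slc22a5*, *Acacb*, *Angptl4* and *Plin2*. Some genes of the rule are not reported here. Proteins were not analysed here. Alternatives were quantile normalization, pseudocounts of 0.01 and 1, filters at 1 FPKM and at none, scaling to total reads, limma-voom on the recovered reads, a replicate block and leaving out each rat.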

Additional observations from a re-analysis of the deposited data

Results flagged for a closer look

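*Etfa* in male 2 stood apart from the other males, at 215 FPKM against 160 to 170 FPKM in the other 4, and the gap was 0.813 of the whole range of the group. *Ppargc1a* in female 2 stood apart in the same way, at 21.6 FPKM against 14.4 to 16.3 FPKM in the other 4 females, with a gap of 0.737 of the range. The critical value for 5 rats is 0.71. Of 80 groups examined, those of 40 genes in each sex, 2 had such a gap, and chance alone gives one in about 1 of 20 groups.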

How the results depend on the processing

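Replicate numbers did not pair the rats: the deviations of same-numbered rats from their group means correlated between -0.0975 and 0.0708, and 1 of 5 males correlated best with the female of its number. With the replicate number as a block, 1 member was called higher and 0 lower, and of the other pathway genes 1 was called higher (*Acsm5*) and 0 lower. The 19 alternatives kept the call of *Acox2* and left the number of members past both thresholds at 1.

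Leaving out 1 rat at a time gave 1 to 2 members called higher, the added one being *Crot* without female 2. It gave 1 to 3 other pathway genes called higher, with *Amacr* added without female 2 and 1 left without male 4 or female 5, where *Fabp3* was lost, and 0 to 1 called lower, with 0 without males 1, 2, 3 or 4 or females 1, 2 or 5, where *Pecr* was lost. From 0 to 2 members had separate ranges downward, with 2 without female 4. From 4 to 7 members had an exact permutation p no higher than 0.05, with 4 without male 3. Without male 5 and female 2 together, 1 other pathway gene was called higher. With no filter, 0 other pathway genes were called lower. Quantile normalization gave 2 members called lower, *Acadm* and *Hsd17b4*, and 2 with separate ranges downward. It called 2.50% of all genes in either direction, and the share of all genes with separate ranges was not computed for it. Scaling to total reads gave 1 member called lower, *Hsd17b4*, and called 2.30% of all genes in either direction. It left 1 member with separate ranges upward, *Acox2*, and 2 downward, *Acadm* and *Hsd17b4*. The median of all genes moved to -0.08. The causes were not tested.

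The log2 fold change of *Ppara* ran from -0.37 to 0.13 with 1 rat left out and turned without male 3 (0.13) and without female 2 (0.08). With 1 rat left out, that of *Cd36* ran from -0.35 to -0.07, that of *Cpt1a* reached -0.02 without male 3 and that of *Acaa2* 0.26 without male 5. That of *Plin2* turned to 0.0137 without female 2, from -0.141 without male 1, and to 0.0265 without male 5 and female 2 together. Of the values of 20 named genes under the alternatives, *Amacr* not included, 358 kept direction and side of the threshold, 13 lost the threshold, 5 gained it and 4 turned. *Echs1* rests on 22 to 50 reads per rat.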
